A study of Homo sapiens with 6 samples.

Results

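Genes for potassium, calcium and sodium channels were followed through the induction of neural crest from human embryonic stem cells. Neural crest is the migratory embryonic population whose descendants include pigment cells, the skeleton of the face, and the neurons and glia of the peripheral nervous system. Members were taken by symbol, as every KCN gene, every CACNA, CACNB or CACNG gene and every gene named SCN, then a number, then A or B. Of 140 matching symbols, 2 antisense symbols (KCNJ2-AS1 and KCNQ1OT1) were left out, which gave 138 members of 23284 genes in the table. Of these, 55 reached an FPKM of at least 1 on some day, against 14573 genes of the whole table. FPKM scales the fragments of a gene by its transcript length and by library size, so levels of different genes can be set side by side on it. The members just inside that level were KCNE3 (highest FPKM 1.05), KCNRG (1.11) and CACNA1B (1.11), and those just outside were KCNA6 (0.992) and KCNC1 (0.990).

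The cells were WA01, an established human embryonic stem cell line that is genetically 1 line, with a wildtype genotype in all groups. The 6 libraries form 3 groups of 2, labelled ES (undifferentiated, day 0), preNC (pre-neural crest, day 3) and NC (neural crest, day 5). The labels list the same medium for every library, with CHIR99021, which blocks the kinase GSK3 and so turns on WNT signalling, on a Matrigel surface, and with the ROCK inhibitor Y-27632 early on. They do not say that day 0 cells were left without these agents, nor whether replicates were separate cultures. The authors' table gives 1 FPKM value per gene and group, so the spread between libraries is not seen and library depths are unknown. Calls of higher or lower rest on q values below 0.05 in the authors' deposited table. Values after ± are standard errors worked back from the test statistic of that table, and for some genes they are at odds with its q.

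Ion channels are membrane proteins that let selected ions pass. Potassium channels set the resting potential and repolarise the cell, and their pore subunits fall into voltage-gated, inward rectifier, tandem pore (KCNK) and calcium- or sodium-activated families. Voltage-gated calcium channels join a CACNA1 pore with beta and alpha2delta subunits that bring it to the membrane, and sodium channels join an SCN pore with beta subunits. In embryonic cells, which rarely fire action potentials, these genes are also studied for membrane potential, cell volume, proliferation and calcium entry. The groups could be told from each other by known markers. All 6 embryonic stem cell markers listed were called lower by day 3, with a summed FPKM of 2039, 187 and 59.9 on days 0, 3 and 5. The 5 neural plate border markers summed to 1.10, 10.1 and 143, and the 6 neural crest markers to 30.8, 14.7 and 58.8, on these days. The neural crest markers were split by day 3, when 2 rose and 2 fell. From day 3 to day 5, 5 of the 6 rose, and 4 were called higher on day 5 than on day 0. The 5 neural progenitor markers summed to 254, 499 and 267 on days 0, 3 and 5. Of these 5, 4 rose and 0 fell by day 3, while 1 rose and 2 fell from day 3 to day 5. The 8 neuronal markers, neuronal tubulin and synaptic genes among them, summed to 231, 331 and 153, most of it TUBB3. Of these 8, 2 rose (STMN2 and ELAVL3) and 3 fell by day 3, while 1 rose and 3 fell from day 3 to day 5. Cardiac and skeletal muscle markers summed to 14.5, 3.67 and 7.80, mostly TNNT2, with MYOG under 0.1 on every day. Of the 4 endothelial markers, KDR was at 22.2, 3.14 and 2.65 and fell by day 3, TEK was at 12.2, 21.5 and 15.3 and rose by day 3, and PECAM1 stayed under 0.1, with a sum of 34.6, 24.8 and 18.0. Endoderm markers summed to 2.14, 12.6 and 17.6, of which CXCR4 held nearly all and SOX17 and FOXA2 stayed under 0.1, and the 4 glial markers summed to 27.2, 32.9 and 26.2. The part of such cells in the channel values was not tested. In bulk RNA, fewer cells of a type and less RNA per cell cannot be told apart.

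Channel genes turned over in both directions, with more members falling than rising. Between day 3 and day 0, 13 members rose and 21 fell of 89 tested, which is 38.2% called, against 20.6% of all tested genes. Between day 5 and day 3, 5 rose and 14 fell of 84 tested, or 22.6%, against 12.6% of all tested genes. From day 0 to day 5, 16 rose and 24 fell of 87 tested, or 46.0%, against 27.0% of all tested genes. By direction, day 3 against day 0 gave 14.6% of tested members higher and 23.6% lower, against 8.96% and 11.6% of all tested genes. From day 3 to day 5 the higher share was 5.95%, against 5.93% of all tested genes, while the lower share was 16.7%, against 6.68%. From day 0 to day 5 the shares were 18.4% higher and 27.6% lower, against 12.2% and 14.7%. Of the members at an FPKM of at least 1 on some day, 16.7% rose (9 of 54) and 25.9% fell (14) by day 3, against 9.37% and 11.3% of all such genes. From day 3 to day 5, 5 of 55 rose and 11 fell, against 5.72% and 6.91% of all such genes, and from day 0 to day 5, 20.4% rose (11 of 54) and 29.6% fell (16), against 12.5% and 15.0%. These 3 comparisons share libraries, so they are not independent of each other. Members that passed the table's own test filter are counted here, and 43 members were tested in no comparison. The median log2 ratio of FPKM plus 1 over tested members was -0.03 by day 3, -0.09 from day 3 to day 5 and -0.15 from day 0 to day 5, against 0.03, -0.04 and -0.01 over all tested genes.

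**Figure D1:**
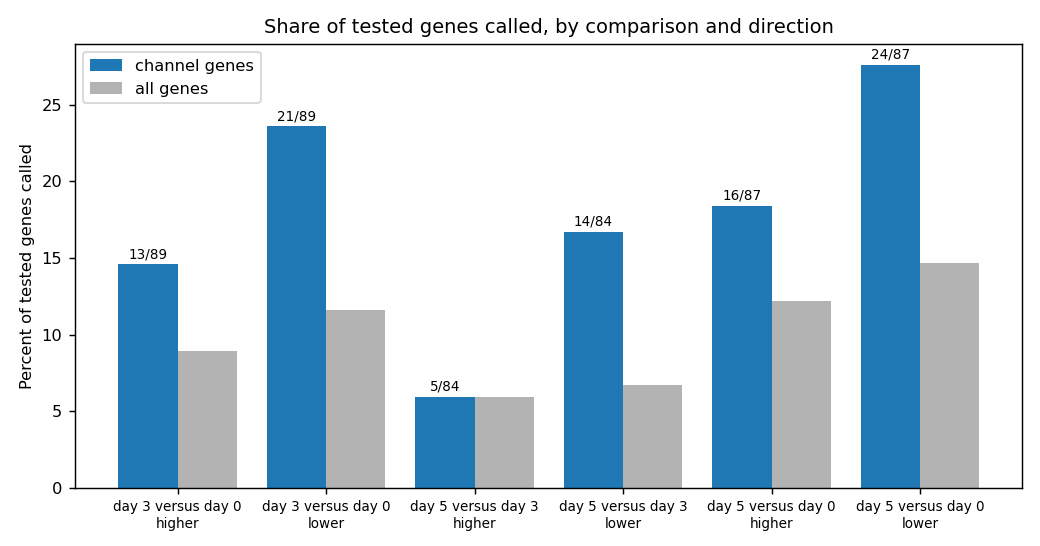
Percent of tested genes called higher or lower (y axis) in each comparison (x axis), for channel genes (blue, with called over tested members) and all genes (grey). The bars of channel genes are taller in each pair, though for the higher calls between day 5 and day 3 they are about equal, at 5.95% and 5.93%.

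The upstream sequences of 6 members are shown because these genes had the 3 largest called rises and the 3 largest called falls from day 0 to day 5, on log2 of FPKM plus 1, among members with a RefSeq promoter entry. Over all members, KCNK12 had the largest called fall (-3.09) and KCNA1 a larger called rise (1.54) than CACNB3 (1.14). Neither KCNK12 nor KCNA1 matched such an entry. KCNK10, KCNH5 and CACNB3 rose, and KCNK1, KCNK6 and KCNK5 fell. Each is the 250 bases before the gene start in RefSeq on GRCh38.p14, read 5′ to 3′ on the gene's strand, with 2 motifs in capitals on either strand: CTTTGA, the core bound by TCF/LEF factors, and GGGCGG, the GC box. The windows are chr14:88326913-88327162 (minus strand) for KCNK10, chr14:63045459-63045708 (minus strand) for KCNH5, chr12:48814230-48814479 (plus strand) for CACNB3, chr1:233613856-233614105 (plus strand) for KCNK1, chr19:38319595-38319844 (plus strand) for KCNK6 and chr6:39229476-39229725 (minus strand) for KCNK5.
KCNK10: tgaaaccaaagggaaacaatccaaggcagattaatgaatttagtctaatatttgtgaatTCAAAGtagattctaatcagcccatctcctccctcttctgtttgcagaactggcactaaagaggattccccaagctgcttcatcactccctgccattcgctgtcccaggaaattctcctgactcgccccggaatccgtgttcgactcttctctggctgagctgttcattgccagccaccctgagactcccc
KCNH5: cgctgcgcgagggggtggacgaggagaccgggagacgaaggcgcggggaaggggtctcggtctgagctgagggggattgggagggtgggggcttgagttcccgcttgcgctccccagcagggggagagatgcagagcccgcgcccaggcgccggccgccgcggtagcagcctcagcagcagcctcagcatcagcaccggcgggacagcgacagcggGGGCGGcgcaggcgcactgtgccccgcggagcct
CACNB3: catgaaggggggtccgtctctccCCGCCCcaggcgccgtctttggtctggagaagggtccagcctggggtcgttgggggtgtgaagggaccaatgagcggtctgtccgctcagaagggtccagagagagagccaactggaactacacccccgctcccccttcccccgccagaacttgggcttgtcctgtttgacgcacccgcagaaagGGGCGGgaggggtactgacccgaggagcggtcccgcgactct
KCNK1: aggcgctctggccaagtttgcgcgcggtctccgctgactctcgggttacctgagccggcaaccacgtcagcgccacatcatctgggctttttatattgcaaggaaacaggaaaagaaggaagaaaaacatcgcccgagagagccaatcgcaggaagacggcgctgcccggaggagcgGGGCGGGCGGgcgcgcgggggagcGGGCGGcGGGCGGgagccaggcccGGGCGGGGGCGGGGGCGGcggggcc
KCNK6: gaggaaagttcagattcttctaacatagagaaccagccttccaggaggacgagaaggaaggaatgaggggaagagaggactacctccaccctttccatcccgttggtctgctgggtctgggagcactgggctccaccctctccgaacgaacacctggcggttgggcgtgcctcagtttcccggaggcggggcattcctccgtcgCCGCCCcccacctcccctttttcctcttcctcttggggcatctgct
KCNK5: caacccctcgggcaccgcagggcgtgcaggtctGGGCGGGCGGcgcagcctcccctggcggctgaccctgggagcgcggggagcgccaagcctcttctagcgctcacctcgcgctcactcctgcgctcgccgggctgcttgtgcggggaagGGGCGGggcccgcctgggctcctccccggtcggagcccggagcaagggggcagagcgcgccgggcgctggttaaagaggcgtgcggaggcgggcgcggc

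The KCNK10 window held 48.0% G or C and 5 CG dinucleotides, with 1 match to CTTTGA and no GC box. The other windows held GC boxes and no CTTTGA, from 1 match in KCNH5 and KCNK6 to 7 in KCNK1, where matches overlap or adjoin. KCNH5 stood at 74.0% G or C with 27 CG dinucleotides, CACNB3 at 65.6% with 16, KCNK1 at 69.2% with 30, KCNK6 at 59.6% with 11 and KCNK5 at 77.2% with 31. Of 138 members, 99 matched a promoter entry. CTTTGA was found in 9.09% of these 99 windows, against 11.4% of 27305 windows of the same length, and GGGCGG in 56.6%, against 42.3%. The median window of members held 64.8% G or C and 16 CG dinucleotides, against 58.0% and 11 over all genes. Members at an FPKM of at least 1 on some day (36 windows) had a median of 17 CG dinucleotides, against 9 in members below it (63 windows). A match describes the letters only.

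The tandem pore genes, whose channels carry a background potassium current, held both the largest called rise and the largest called fall of the module from day 0 to day 5, as log2 ratios of values above 0. Of 8 tested by day 3, 1 rose and 4 fell, and of 7 tested from day 0 to day 5, 1 rose and 5 fell. Of all tested genes, 8.96% rose and 11.6% fell by day 3, and 12.2% and 14.7% from day 0 to day 5. Of 15 members 6 reached an FPKM of at least 1, and all 6 were called in at least 1 comparison. The share of all genes at that level called in at least 1 comparison was not counted. KCNK10 (chromosome 14, 88646452 to 88793256 on hg19), which encodes a mechano-gated and lipid-gated channel, stood at 0.144, 6.37 and 8.35 FPKM on days 0, 3 and 5. Its day 3 level was 44.1-fold that of day 0 (log2 5.46 ± 0.54) and was not called between day 5 and day 3 (log2 0.39 ± 0.42, q = 0.381 in the authors' deposited table). The other 5 fell. KCNK1 (chromosome 1, 233749750 to 233808258), a weakly conducting channel that recycles through endosomes, was at 6.84, 0.541 and 0.0691 on days 0, 3 and 5. It fell in both steps, and its log2 ratio of -6.63 ± 0.94 from day 0 to day 5 was the lowest of the called members with values above 0 on both days. KCNK6, a close relative in the family, was at 5.59, 1.81 and 0.659, and also fell in both steps (log2 -1.63 ± 0.44 and -1.45 ± 0.56). The second fall of both genes was lost at a q threshold of 0.01. That of KCNK6 was also lost with p recomputed from the test statistic.

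KCNK12 and KCNK5 held most of the family's RNA on day 0. KCNK12 (chromosome 2, 47747915 to 47797470), a member whose product is largely silent on its own, stood at 16.1, 11.4 and 1.01 FPKM on days 0, 3 and 5. It was not called by day 3 (log2 -0.50 ± 0.25, q = 0.364 in the authors' deposited table) and then fell by 3.49 ± 0.40 on the log2 scale. KCNK5 (chromosome 6, 39156747 to 39197251), an alkaline-activated channel of kidney epithelium, was called in the other step, with 14.9, 4.29 and 3.01, and fell by day 3 (log2 -1.80 ± 0.37). KCNK17, another alkaline-activated channel and a neighbour of KCNK5 on chromosome 6 at a gap of 69.5 kb, was at 1.47, 0.270 and 0.0377 and also fell by day 3 (log2 -2.45 ± 0.76). KCNK16, which lies 0.236 kb from KCNK17, was listed at 0 on every day. The family's summed FPKM was 45.9, 25.5 and 13.6 on days 0, 3 and 5. KCNK10 made up 0.314% of it on day 0, 25.0% on day 3 and 61.6% on day 5, whereas KCNK12 made up 35.1%, 44.6% and 7.45% and KCNK1 14.9%, 2.12% and 0.509%.

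**Figure D2:**
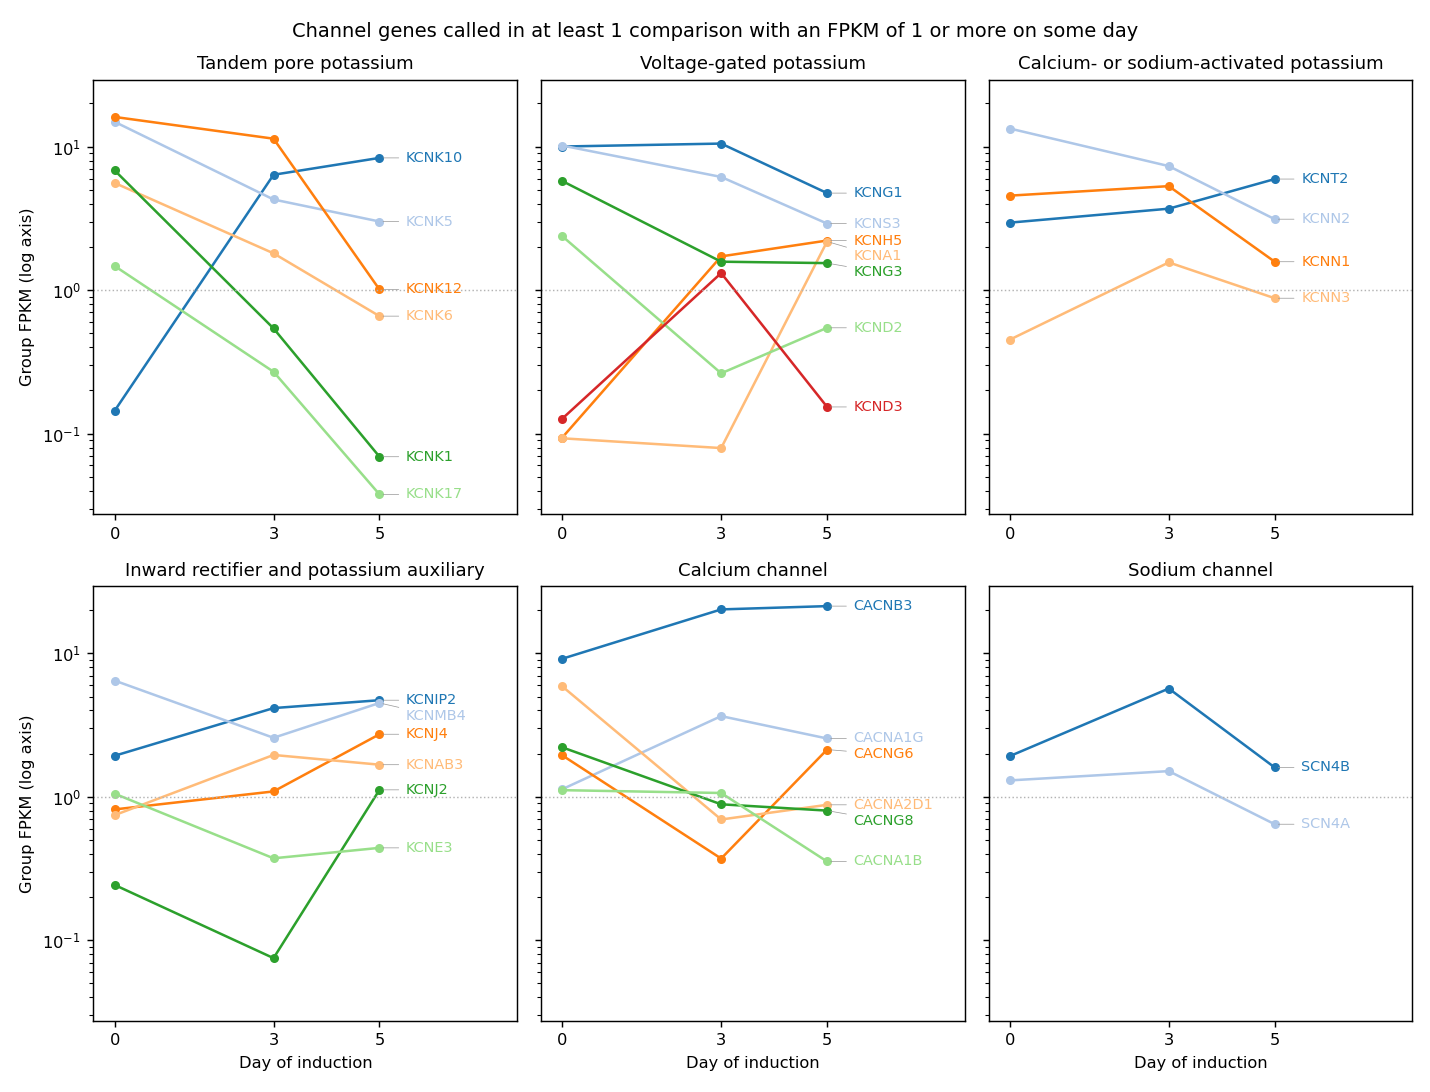
Group FPKM (log axis) by day of induction for 31 channel genes at an FPKM of at least 1 on some day that were called in at least 1 comparison, in 6 family panels. Each line is a gene with 1 value per group, so no error is drawn, and the dotted line marks an FPKM of 1. KCNK10 ends above all other tandem pore genes, and SCN4B peaks on day 3 at 5.68.

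Among voltage-gated potassium pores, 15 of 40 members reached an FPKM of at least 1. By day 3, 5 of 26 tested rose and 5 fell. From day 3 to day 5, 2 of 24 rose and 4 fell, and from day 0 to day 5, 4 of 22 rose and 6 fell. Of all tested genes, 8.96% rose and 11.6% fell by day 3, and 5.93% and 6.68% from day 3 to day 5. From day 0 to day 5 these shares were 12.2% and 14.7%. KCNH2, the cardiac repolarising channel known as hERG, was at 4.41, 6.55 and 3.98 FPKM on days 0, 3 and 5 without a call.

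KCNH5, KCNA1 and KCNC1 rose. KCNH5 (chromosome 14, 63173945 to 63568584), of the ether-à-go-go group, was at 0.0939, 1.72 and 2.22 FPKM on days 0, 3 and 5, and rose by day 3 (log2 4.19 ± 0.77). KCNA1 (chromosome 12, 5019073 to 5027422), a low-threshold axonal channel, was at 0.0928, 0.0793 and 2.18, and its rise lay between day 3 and day 5 (log2 4.78 ± 0.66). Its neighbours on chromosome 12 are voltage-gated potassium pores as well. KCNA6, at a gap of 58.8 kb, was at 0.992, 0.757 and 0.795 without a call, and KCNA5, at a gap of 126 kb, was at 0.196, 0.803 and 0.234, called higher by day 3 and lower after it. KCNC1, a fast channel of rapidly firing neurons, was at 0.0232, 0.990 and 0.504 and rose by day 3 (log2 5.42 ± 1.08).

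Silent modifier subunits make no channel alone and alter the channels of other voltage-gated pores. KCNG2, KCNG4, KCNS2, KCNV1 and KCNV2 were tested in no comparison, and the tested members named next were called lower in different steps. KCNG1 stood at 10.0, 10.5 and 4.75 FPKM on days 0, 3 and 5, and fell between day 3 and day 5 (log2 -1.15 ± 0.33). KCNS3 was at 10.2, 6.15 and 2.91 and fell in the same step (log2 -1.08 ± 0.47). That call was lost at a q threshold of 0.01 and with p recomputed from the test statistic. KCNS3 was also lower on day 5 than on day 0 (log2 -1.81 ± 0.45). KCNG3 fell earlier, by day 3 (log2 -1.87 ± 0.50), with 5.76, 1.58 and 1.54. The weakly expressed KCNS1 (0.610, 0.133 and 0.0819) and KCNF1 (0.592, 0.0546 and 0.228) fell by day 3, the KCNF1 call being lost at a q threshold of 0.01.

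The A-type pores KCND2 and KCND3, which open below firing threshold, went opposite ways by day 3. KCND2 stood at 2.38, 0.263 and 0.547 FPKM on days 0, 3 and 5, a fall by day 3 of 3.17 ± 0.62 on the log2 scale. KCND3 was at 0.127, 1.32 and 0.154, and rose by day 3 (log2 3.37 ± 0.96) and fell from day 3 to day 5 (log2 -3.10 ± 0.80). KCND1, the remaining pore of that group, was at 2.06, 2.16 and 1.79 without a call. KCNH6, a relative of KCNH2, was at 0.350, 0.165 and 0.0705 and was called lower on day 5 than on day 0, a call lost at a q threshold of 0.01 and with p recomputed from the test statistic.

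Calcium-activated potassium channels of small conductance (KCNN genes) open on a rise of cell calcium, and KCNN1 and KCNN2 fell while the sodium-activated KCNT2 rose. KCNN2 (chromosome 5, 113698016 to 113832197) stood at 13.4, 7.32 and 3.12 FPKM on days 0, 3 and 5 and was called lower in each comparison (log2 -0.87 ± 0.45 by day 3 and -1.23 ± 0.51 from day 3 to day 5). Its call by day 3 (q = 0.0409 in the authors' deposited table) was lost with p recomputed from the test statistic, as was the call from day 3 to day 5. The call by day 3 was also lost at a q threshold of 0.01. KCNN1 was at 4.56, 5.31 and 1.58 and fell after day 3 (log2 -1.75 ± 0.42). KCNN3 was at 0.452, 1.56 and 0.879 and rose by day 3 (log2 1.79 ± 0.47), and KCNN4, of intermediate conductance, stayed under 1 without a call. KCNT2 was at 2.96, 3.70 and 5.95 and was higher on day 5 than on day 0 (log2 1.01 ± 0.39), a call lost with p recomputed from the test statistic. KCNMA1, the large-conductance channel, was at 0.967, 0.450 and 0.300 and was lower on day 3 and on day 5 than on day 0. Its day 3 call was lost at a q threshold of 0.01 and with p recomputed from the test statistic. Of the group's summed FPKM, KCNN2 made up 58.8%, 39.4% and 25.9% on the 3 days, and KCNT2 13.0%, 19.9% and 49.3%.

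**Figure D3:**
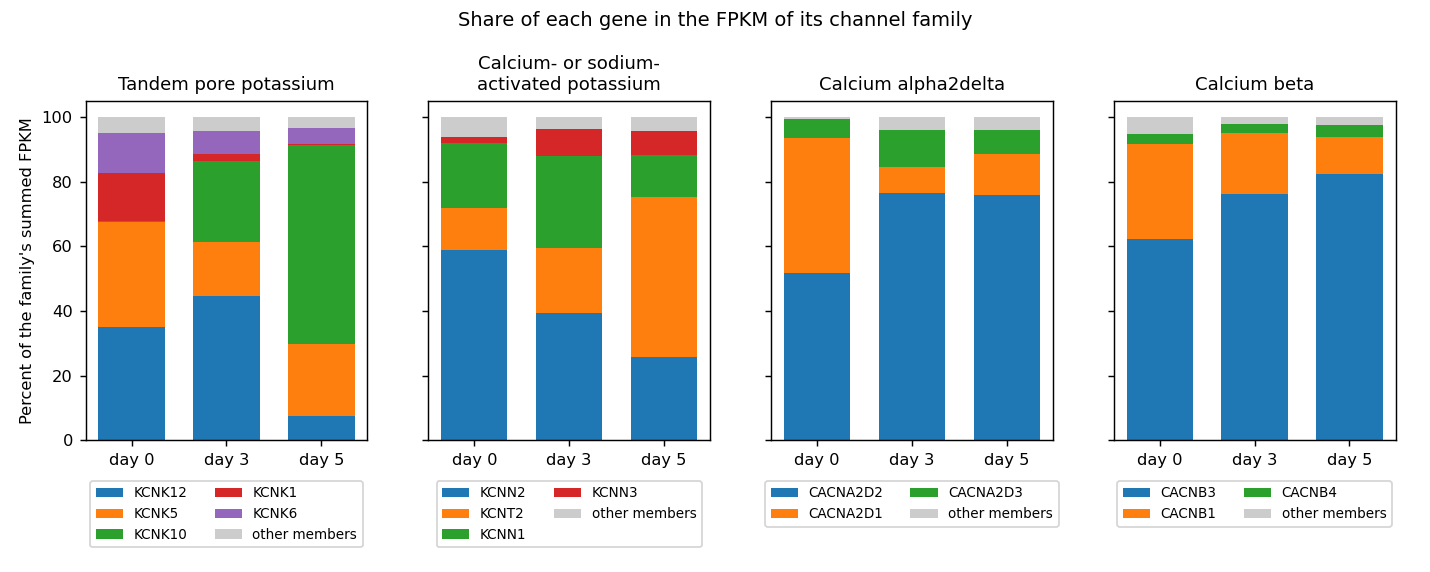
Percent of the summed FPKM of 4 channel families (y axis) held by each gene on day 0, day 3 and day 5 (x axis), with remaining members in grey. KCNK10 (0.314%, 25.0% and 61.6%), KCNT2 (13.0%, 19.9% and 49.3%), CACNA2D2 (51.7%, 76.6% and 75.8%) and CACNB3 (62.1%, 76.1% and 82.2%) hold the largest share of their families on day 5.

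Inward rectifiers, which hold cells near the potassium equilibrium potential, were weakly expressed, with 3 of 16 members at an FPKM of at least 1. Of 9 tested, 3 fell by day 3, against 11.6% of all tested genes. Of 8 tested, 2 rose from day 3 to day 5, against 5.93% of all tested genes. From day 0 to day 5, 2 rose and 2 fell of 10 tested, against 12.2% and 14.7% of all tested genes. KCNJ2 (chromosome 17, 68165676 to 68176183), a strong rectifier of heart and muscle, was at 0.243, 0.0751 and 1.12 on days 0, 3 and 5. Its day 5 level was 14.9-fold that of day 3 (log2 3.90 ± 0.77), after a fall by day 3 (log2 -1.69 ± 0.86) that was lost at a q threshold of 0.01. KCNJ4, another strong rectifier, was at 0.817, 1.09 and 2.73 and rose from day 3 to day 5 (log2 1.32 ± 0.52, q = 0.0303 in the authors' deposited table), a call lost at a q threshold of 0.01. With p recomputed from the test statistic, this call and that of the KCNJ2 fall by day 3 were lost as well. KCNJ11, the pore of the ATP-sensitive channel, was at 2.34, 2.09 and 2.38 without a call. The neuronal G protein-gated KCNJ6 (0.721, 0.0315 and 0.0291) and the glial KCNJ10 (0.470, 0.104 and 0.130) fell by day 3 at levels under 1, the KCNJ6 call being lost at a q threshold of 0.01. KCNJ12 and KCNJ18 share their locus in the table and are near-identical copies, so their values (at most 0.620 and 0.108) are uncertain.

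Of the auxiliary potassium subunits, 1 rose and 2 fell of 13 tested by day 3, against 8.96% and 11.6% of all tested genes. From day 3 to day 5, 0 of 14 tested were called, against 12.6%. From day 0 to day 5, 3 rose and 0 fell of 14 tested, against 12.2% and 14.7%. With directions pooled, 20.6% of all tested genes were called by day 3 and 27.0% from day 0 to day 5. The pooled counts of auxiliary subunits in these 2 comparisons lie near those shares. KCNMB4, the neuronal beta subunit of KCNMA1, stood at 6.46, 2.58 and 4.51 FPKM on days 0, 3 and 5, and fell by day 3 (log2 -1.33 ± 0.48). KCNIP2, a calcium-binding partner of KCND pores, was at 1.93, 4.15 and 4.71 and was higher on day 5 than on day 0 (log2 1.29 ± 0.60, q = 0.0217 in the authors' deposited table), a call lost at a q threshold of 0.01. KCNAB3, a cytoplasmic beta subunit, was at 0.745, 1.96 and 1.67 and rose by day 3 (log2 1.39 ± 0.52), and KCNAB2 was at 3.59, 2.88 and 2.48 without a call. KCNE3, a small membrane partner of KCNQ1, was at 1.05, 0.373 and 0.441 and fell by day 3 (log2 -1.50 ± 0.72). The calls of KCNAB3 and KCNE3 were lost at a q threshold of 0.01. KCNIP4 (0.366, 0.631 and 0.955) and KCNE1 (0.0608, 0.115 and 0.262) were higher on day 5 than on day 0 at levels under 1, and both calls were lost there too. With p recomputed from the test statistic, the calls of KCNIP2, KCNAB3, KCNE3, KCNIP4 and KCNE1 were lost as well. KCNIP1 and KCNMB1 share a locus, and KCNRG overlaps TRIM13, DLEU1 and DLEU2, so their values near 1 are uncertain.

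Among calcium channel subunits the beta subunit CACNB3 rose and the alpha2delta subunit CACNA2D1 fell. CACNB3 (chromosome 12, 49208215 to 49222726) was at 9.16, 20.2 and 21.3 FPKM on days 0, 3 and 5. Its rise lay in the step to day 3 (log2 1.14 ± 0.43, 2.21-fold), q = 0.00283 in the authors' deposited table, and that call was lost with p recomputed from the test statistic, while the call from day 0 to day 5 (log2 1.22 ± 0.44) was not. CACNB1, a beta subunit of skeletal muscle and brain, was at 4.37, 5.02 and 2.98 without a call, and CACNB4, at 0.448, 0.783 and 0.976, was higher on day 5 than on day 0 (log2 1.12 ± 0.50). CACNB3 made up 62.1% of the FPKM of the 4 beta genes on day 0, 76.1% on day 3 and 82.2% on day 5. CACNA2D1 (chromosome 7, 81579418 to 82073031), the target of gabapentin, was at 5.88, 0.695 and 0.879 and fell by 3.08 ± 0.56 on the log2 scale by day 3. CACNA2D2 was at 7.30, 6.64 and 5.21 without a call. CACNA2D3 (0.833, 0.976 and 0.512) shares its locus with LRTM1 and ESRG, a noncoding RNA of stem cells, and had an implied standard error of 13.6 by day 3. CACNA2D4 (0.0988, 0.354 and 0.268) rose by day 3 at low levels. The calls of CACNB4 and CACNA2D4 were lost at a q threshold of 0.01 and with p recomputed from the test statistic.

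Calcium pores of the low-voltage group (CACNA1G, CACNA1H and CACNA1I), which open near rest, made up 60.6% of the summed FPKM of the 10 calcium pores on day 0, 67.5% on day 3 and 66.3% on day 5. By day 3, 2 of 7 tested pores rose and 1 fell, and 2 of 6 fell from day 3 to day 5. Of all tested genes, 8.96% rose and 11.6% fell by day 3, and 6.68% fell from day 3 to day 5. CACNA1H was the highest pore on each day, at 7.62, 8.98 and 8.31, without a call. CACNA1G was at 1.13, 3.65 and 2.55 and rose by day 3 (log2 1.69 ± 0.50), whereas CACNA1I was at 0.632, 0.194 and 0.117 and fell by day 3 (log2 -1.70 ± 0.61). CACNA1H shares its locus with TPSG1 and CACNA1G with LOC253962. CACNA1A, the P/Q-type pore of synapses, was at 4.17, 3.71 and 4.61 without a call. CACNA1B, the N-type pore of synapses, was at 1.11, 1.06 and 0.354 and fell after day 3 (log2 -1.59 ± 0.52). CACNA1E, the R-type pore, was at 0.125, 0.966 and 0.124, and was called 7.72-fold higher by day 3 (log2 2.95 ± 0.55) and lower from day 3 to day 5 (log2 -2.96 ± 0.60). The pores of heart and skeletal muscle, CACNA1C and CACNA1S, stayed at or below 0.252 and 0.0955.

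Of 8 CACNG genes, 4 reached an FPKM of at least 1. Several of them, CACNG7, CACNG8 and CACNG4 included, encode proteins that bind AMPA-type glutamate receptors, so the symbol does not make each a calcium channel subunit. CACNG7 (chromosome 19, 54415991 to 54446969) was at 45.4, 28.4 and 28.9, and was not called in any comparison, q = 0.0741 by day 3 in the authors' deposited table. CACNG8, 19.3 kb away, was at 2.21, 0.887 and 0.801 and fell by day 3 (log2 -1.32 ± 0.49). CACNG6, 2.07 kb beyond CACNG8, was at 1.94, 0.371 and 2.13, called lower by day 3 (log2 -2.39 ± 0.73) and higher after it (log2 2.52 ± 0.67). CACNG4 was at 1.92, 2.48 and 3.45 without a call. CACNG5 was at 0.672 on day 0 and 0.0157 on day 3 and was listed at 0 on day 5, and it was called lower on day 5 than on day 0 with no usable test statistic.

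Sodium channel genes were low throughout, and their highest member on day 3 was a beta subunit. SCN4B (chromosome 11, 118004092 to 118023630) stood at 1.92, 5.68 and 1.60 FPKM on days 0, 3 and 5. It rose by day 3 (log2 1.56 ± 0.47) and fell from day 3 to day 5 (log2 -1.83 ± 0.48), q = 0.000596 in both steps in the authors' deposited table, and day 5 was not called against day 0 (log2 -0.26 ± 0.53). Its neighbour SCN2B, 9.89 kb away, was at 0.0653, 0.152 and 0.101. The beta subunit SCN3B (0.173, 0.243 and 0.0914) was called lower from day 3 to day 5 at low levels. That call was lost at a q threshold of 0.01 and with p recomputed from the test statistic. Of 6 sodium pores tested from day 0 to day 5, 1 rose and 3 fell, against 12.2% and 14.7% of all tested genes. SCN8A, the main nodal channel of neurons, was at 3.01, 3.13 and 2.65 without a call. SCN4A, the skeletal muscle pore, was at 1.30, 1.51 and 0.644 and fell after day 3 (log2 -1.23 ± 0.48). SCN9A, known for its part in pain sensing, was at 0.521, 0.0713 and 0.0231 and fell by day 3 (log2 -2.87 ± 0.74), while SCN7A, a sodium sensor next to it on chromosome 2, was at 0.0445, 0.169 and 0.206 and was higher on day 5 than on day 0 (log2 2.21 ± 0.71). The call of SCN4A was lost at a q threshold of 0.01 and with p recomputed from the test statistic.

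**Figure D4:**
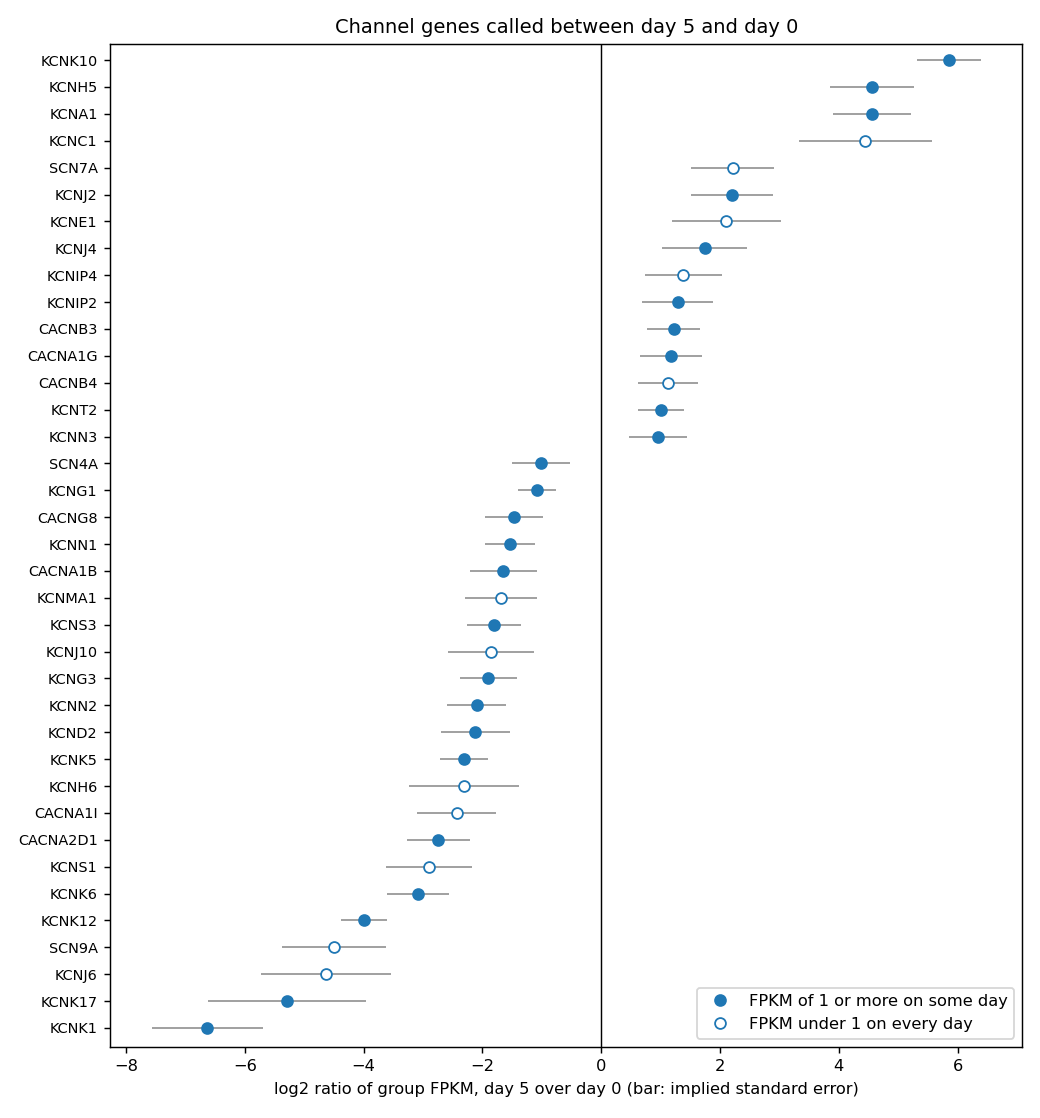
Log2 ratio of group FPKM, day 5 over day 0 (x axis, bar for the implied standard error), for 37 channel genes called in that comparison that have a value above 0 on both days, without CACNG5. Filled points reached an FPKM of at least 1 on some day and open points did not, with KCNK10 at 5.85 and KCNK1 at -6.63 at the ends.

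The remaining members were low. Of 83 members under an FPKM of 1 on every day, 18 were called in some comparison and 65 had no call. All 43 members tested in no comparison are among these 65. The share of all genes under that level called in some comparison was not counted. Of the 83, 23 stayed under 0.1, and KCNA10, KCNG4 and KCNK16 were listed at 0 on every day. At such levels few fragments may stand behind a value. The noncoding members KCNQ1DN and KCNIP4-IT1 were not tested. Loci are also shared by KCNIP2 with LOC100289509, KCNAB2 with NPHP4, CACNA2D4 with LRTM2, KCNQ1 with its antisense KCNQ1OT1, and KCNK1, KCNT2 and CACNG8 with microRNA genes, so reads of these genes may not be told apart. Of the 55 members at an FPKM of at least 1 on some day, 34 were called in at least 1 comparison and 21 were not. The share of all such genes called in at least 1 comparison was not counted. Of the members tested, 42.6% were called by day 3, 29.1% from day 3 to day 5 and 50.0% from day 0 to day 5. Of all such genes tested, 20.7%, 12.6% and 27.5% were called in these comparisons. The FPKM summed over all members was 326, 304 and 244 on days 0, 3 and 5.

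A list of 59 other genes of excitability and ion handling was counted in the same way. By day 3, 8 rose and 14 fell of 54 tested. From day 3 to day 5, 3 rose and 7 fell of 52, and from day 0 to day 5, 7 rose and 16 fell of 54. Over all tested genes 20.6%, 12.6% and 27.0% were called in these comparisons. The pacemaker channel HCN4 fell in both steps, at 4.23, 1.44 and 0.503 FPKM on days 0, 3 and 5. The inositol trisphosphate receptors ITPR2 (4.09, 0.284 and 0.180) and ITPR3 (11.4, 2.45 and 0.992), which release stored calcium, fell by day 3. ITPR3 fell again from day 3 to day 5, whereas ITPR2 was not called in that step. The plasma membrane calcium pump ATP2B1 rose in both steps, with 7.47, 16.9 and 39.3. FGF12, a cytoplasmic partner of sodium pores, was at 1.12, 2.54 and 4.63 and rose in both steps. REST, a repressor of many neuronal channel genes, was at 10.2, 19.0 and 17.1 and rose by day 3. No relation of REST to the channel values was tested.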

How the data were processed

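RNA was measured in 6 libraries from poly-adenylated RNA of WA01 cells, 2 labelled replicates each on day 0, day 3 and day 5. Cuffdiff 2.1.1, TopHat2 2.0.10, TopHat and the build hg19 are named in the submitters' processing notes, and what annotation or strand setting was used is not given in the sources used here. The deposited table has 69852 lines, 1 per gene and comparison. Per the file headers, it holds the authors' FPKM of both groups compared (libraries combined). The authors' test statistic is a score per gene. The p-value and q-value are as deposited. No library-level values were used, so counts of fragments are unknown. Whether replicates were separate cultures is not stated in the labels, so p-values may measure only technical spread. No step of 1 fragment could be read, since 982, 980 and 992 of the 1000 lowest values above 0 were distinct on days 0, 3 and 5.

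The deposited q equals a Benjamini-Hochberg adjustment over the 48572 tested lines with a largest gap of 5.25e-07. Its smallest p is 5e-05. Tested means a status of OK, and called a q below 0.05. Ratios were computed here from FPKM, with a pseudocount of 1 for medians. Of the FPKM sum, 27.0%, 25.9% and 21.9% on the 3 days lay in 3 small RNA genes. Locus starts were taken as counted from 0, since widths matched RefSeq lengths that way for 1901 genes and the other way for 253, and are printed counted from 1. In all, 23 members share their locus with another gene, and the position printed for them is that locus. Of 138 symbols 137 were found in RefSeq, where KCNE1L is listed as KCNE5. Python 3.11.15, pandas 2.3.3, numpy 2.4.6, scipy 1.17.1 and matplotlib 3.10.9 were used, and the adjustment was tested on simulated data. The members, lists and tests were chosen with earlier results of these data known. Some items are not reported here by name, or drawn, and remain in the counts and sums. Otherwise, named are all called members, the 10 highest uncalled at an FPKM of at least 1, the 3 highest below it, and members that make a small count or a neighbour clear. Alternatives were a q threshold of 0.01, p recomputed from the test statistic under a normal distribution, adjustment within a comparison, filters on FPKM, rescaling and pseudocounts.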

Additional observations from a re-analysis of the deposited data

How the results depend on the processing

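No paired analysis was possible because the table holds no values per library, and leaving out a replicate was not run for the same reason. Between day 5 and day 3 the count of called members, 19 as reported, was 12 (3 higher, 9 lower) at a q threshold of 0.01, and also 12 (3 higher, 9 lower) with p recomputed from the test statistic under a normal distribution. Adjusting p within that comparison gave 3 higher members. Between day 5 and day 0 the recomputed p gave 8 higher members in place of 16. The median log2 ratio from day 0 to day 5, -0.15 over members at an FPKM of at least 1, was -0.025 over all members listed. All other counts stayed within 1.5 times under the alternatives run. Of 92 calls of single members with a finite ratio, 27 were lost with the recomputed p, 26 at a q of 0.01 and 3 with adjustment within the comparison (KCNJ4 and SCN3B among them). No direction of a called member turned under rescaling without the 3 small RNA genes or centring on the median, which move log2 ratios by at most 0.10 and 0.06. Leaving out members that share a locus, chosen after seeing the data, gave 34 called members between day 5 and day 0 in place of 40. An FPKM minimum of 0.5 kept 78 members, and 2 kept 42, in place of 55. Depth is unknown, so values far below an FPKM of 1 have no stated precision.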
